A study of Mus musculus with 5 samples.

Results

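The immunoglobulin heavy (Igh) and kappa (Igk) loci were examined in mouse sperm, as windows on the mm10 build at chr12:113258000-116010000 and chr6:67555000-70727000. Both strands of each CpG were merged, CpGs that reached 5 reads in each of the 5 libraries were kept, and 1000-bp tiles holding at least 3 of them were taken as the units of measurement. This gave 737 tiles, 282 in Igh and 455 in Igk, of 321659 in the genome. The windows had room for 2752 tiles in Igh and 3172 in Igk, so most of each locus was not measured. The Igh tiles divided into 279 in the variable part, which holds the V, D and J segments, and 3 in the constant part. All 455 Igk tiles lay in the variable part.

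The data are whole-genome bisulfite calls on genomic DNA of sperm that swam out of the cauda epididymis, the storage end of the epididymal duct. All mice were C57BL/6, an inbred laboratory strain, with no transgene or treatment in the labels. The old group, aged 18 months, had 2 libraries (old replicates 1 and 2). The young group, aged 2 months, had 3 libraries (young replicates 1, 2 and 3), and the comparison of the groups asks how sperm methylation differs between the ages. The labels do not say that the libraries came from separate animals, so p-values measure the spread between these libraries.

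An antibody heavy or light chain is encoded by V, J and, in the heavy chain, D segments that are cut and joined in developing B cells, followed by constant genes that set the antibody class. The RAG recombinase finds each segment by a recombination signal that opens with a conserved heptamer. Sperm do not rearrange these loci and pass them on in the germline order, so every V segment is present in each sperm. CpG methylation is high over most of the sperm genome and low at many promoters.

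Few genes of the windows have an entry in the RefSeq promoter table (build GRCm38.p6, 250 bases before to 50 after the gene start), and those printed are shown because the values below concern them. Adam6a and Adam6b lie between the D and V segments of Igh, encode membrane proteins of the testis, and are needed for normal fertility of male mice. The Adam6a window at chr12:113543658-113543957 and the Adam6b window at chr12:113489315-113489614, both on the plus strand, shared 199 of 199 aligned bases at their best offset, with the genes 54.3 kb apart. Capitals mark the CpG.
Adam6a: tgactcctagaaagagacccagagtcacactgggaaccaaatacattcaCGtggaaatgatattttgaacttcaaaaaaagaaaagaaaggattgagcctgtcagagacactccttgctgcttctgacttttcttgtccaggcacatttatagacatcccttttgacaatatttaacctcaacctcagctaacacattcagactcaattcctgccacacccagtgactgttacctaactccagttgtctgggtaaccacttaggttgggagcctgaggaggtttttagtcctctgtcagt
Adam6b: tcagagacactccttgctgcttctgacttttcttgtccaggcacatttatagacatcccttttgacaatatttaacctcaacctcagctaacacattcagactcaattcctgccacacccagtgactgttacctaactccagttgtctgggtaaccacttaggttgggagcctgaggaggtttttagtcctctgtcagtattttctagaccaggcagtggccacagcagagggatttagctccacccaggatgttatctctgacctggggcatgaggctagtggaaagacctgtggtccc

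The lncRNA gene Gm40899 starts beside the V segment Ighv1-23, and its window is chr12:114764158-114764457, plus strand. Capitals mark a match to the heptamer CACAGTG on the minus strand, at chr12:114764443-114764449, with 0 bases between it and the annotated Ighv1-23 (chr12:114764450-114764743).
Gm40899: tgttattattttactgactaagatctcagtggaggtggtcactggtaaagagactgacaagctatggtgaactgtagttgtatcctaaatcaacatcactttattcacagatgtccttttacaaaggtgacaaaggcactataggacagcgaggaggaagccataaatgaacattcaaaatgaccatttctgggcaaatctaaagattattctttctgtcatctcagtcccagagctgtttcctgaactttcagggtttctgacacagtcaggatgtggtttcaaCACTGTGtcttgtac
Another 3 lncRNA genes of the distal V segments, Gm30948, Gm30996 and Gm40900, had windows with 0 CpGs. Gm30948 at chr12:115262401-115262700 and Gm30996 at chr12:115407364-115407663, both plus strand and printed in lower case throughout, matched at 86.4% of 264 aligned bases and lie 145 kb apart.
Gm30948: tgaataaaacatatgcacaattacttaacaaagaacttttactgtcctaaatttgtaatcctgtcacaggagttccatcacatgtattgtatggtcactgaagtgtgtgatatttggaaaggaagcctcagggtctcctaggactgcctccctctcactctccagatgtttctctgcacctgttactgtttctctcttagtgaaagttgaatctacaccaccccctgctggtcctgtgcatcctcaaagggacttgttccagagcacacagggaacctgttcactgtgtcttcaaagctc
Gm30996: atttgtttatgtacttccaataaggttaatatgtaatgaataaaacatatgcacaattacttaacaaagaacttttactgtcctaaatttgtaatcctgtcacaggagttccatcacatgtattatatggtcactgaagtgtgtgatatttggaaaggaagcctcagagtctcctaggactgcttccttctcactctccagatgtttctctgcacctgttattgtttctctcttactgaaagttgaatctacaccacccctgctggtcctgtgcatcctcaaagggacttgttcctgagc
The hairpins of the miRNA genes Mir7094-1 (chr12:114469407-114469466, minus strand) and Mir7094-2 (chr12:114513635-114513694, minus strand) differ in 1 of 60 bases, which is in capitals, and lie 44.2 kb apart.
Mir7094-1: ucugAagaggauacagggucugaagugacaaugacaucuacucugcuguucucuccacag
Mir7094-2: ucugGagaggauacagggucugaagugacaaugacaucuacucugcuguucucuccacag
The heptamer, sought on both strands, was in 3 of the 11 promoter windows of the loci, those of Gm40899, Gm30948 and Gm40900, and in 6.81% of all 32851 windows. In Gm30948 the match, also on the minus strand, is left in lower case. Of the 11 windows, 4 held no CpG, against 5.43% of all windows. Sequences this alike can receive each other's reads, and the effect of that on the levels below was not tested.

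Coverage summed over listed cytosines was 90640296 and 90716510 reads in the old libraries and 67774094 to 97769462 in the young ones. Mean coverage at the kept CpGs was 22.7 to 25.3 reads in old libraries and 21.6 to 28.1 in young ones. The label of sperm was read against imprinted genes: the measured ends of H19 and Rasgrf1, methylated on the paternal copy, averaged 97.1% ± 3.35 in old and 97.4% ± 2.68 in young libraries (SD, n = 2 and 3). The control regions of maternally imprinted genes are unmethylated in sperm. Single libraries spread widely at the measured ends of such genes, from 0% to 40.2% at Kcnq1ot1 and from 9.41% to 24.9% at Nnat. The 8 measured ends averaged 56.4% ± 2.17 in old and 57.0% ± 2.01 in young libraries, and ranged from 17.3% at Nnat to 94.1% at Peg10. Of these, Grb10, Zrsr1, Peg10 and Snrpn were above 76%, and whether the measured end was the imprinted region was not tested. The 3 measured ends of leukocyte genes averaged 83.97% ± 2.34 in old and 81.1% ± 5.78 in young libraries, and the 5 of epididymal epithelium averaged 73.7% ± 5.08 and 78.2% ± 5.82. At Cdh1, a gene of the epithelial list, single libraries ran from 0% to 72.2%. Young replicates 2 and 3 stood apart: over autosomal tiles outside the loci that were 20% to 40% methylated, old replicates 1 and 2 read 29.9% and 31.95%, and young replicates 1, 2 and 3 read 29.4%, 23.8% and 40.9%. Over tiles at 90% or more the same order of libraries read 95.4%, 95.3%, 95.6%, 96.0% and 94.4%.

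The heavy locus was less methylated than the rest of its chromosome in every library. Its tile mean was 76.4% and 75.6% in old replicates 1 and 2, and 73.9%, 71.2% and 74.4% in young replicates 1, 2 and 3. The rest of chromosome 12, with 14962 tiles, averaged 91.2% ± 0.0677 in old and 91.0% ± 0.685 in young libraries. Igh was therefore 16.8 points below it on average, and the gap ran from 14.8 points in old replicate 1 to 20.3 in young replicate 2. The exact sign-flip test over 5 libraries gave its smallest possible two-sided p of 0.0625, or 0.0714 adjusted over 16 contrasts. Coverage in the Igh tiles was 23.7 to 31.0 reads per CpG and 22.9 to 30.4 over the rest of the chromosome. Of 874 autosomal windows of the length of Igh with at least 100 tiles, 5 had a lower mean than its 74.4%, reads pooled over libraries.

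The kappa locus was nearer than Igh to the level of the rest of its chromosome. Igk read 88.8% and 88.0% in old replicates 1 and 2, and 87.4%, 87.3% and 87.4% in young replicates 1 to 3. The rest of chromosome 6 averaged 90.01% ± 0.128 in old and 89.8% ± 0.608 in young libraries, so that Igk was 2.11 points lower, below in 5 of 5 libraries (exact sign-flip p = 0.0625, adjusted 0.0714). Among windows of its length 122 of 759 were lower. Within libraries Igh was 13.5 points below Igk, with the gap between 12.3 and 16.1 points.

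**Figure D1:**
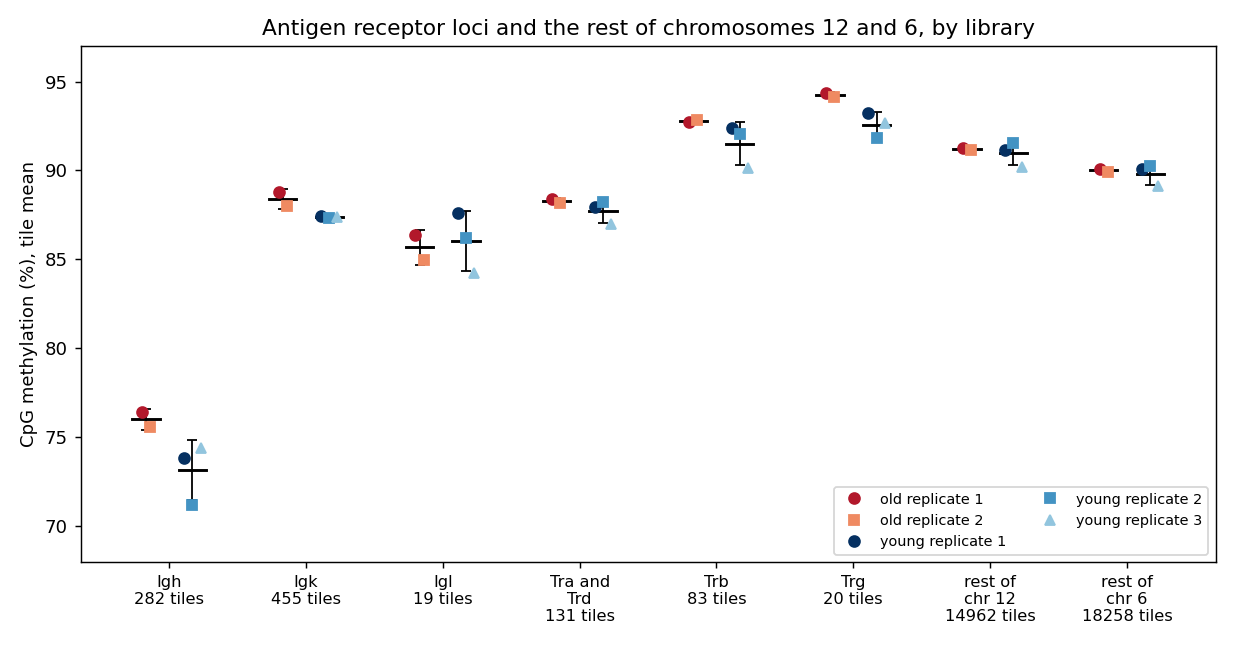
Tile mean of CpG methylation (%) of each locus and of the rest of chromosomes 12 and 6, with old libraries left and young libraries right of each pair; bars are the mean and SD over 2 old and 3 young libraries. All 5 Igh points, 71.2% to 76.4%, lie below every other point, and the old Igh points lie above the young ones.

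The other antigen receptor loci were not low in the same way. The lambda light chain locus Igl (19 tiles) averaged 85.7% ± 0.984 in old and 86.0% ± 1.69 in young libraries. T cell receptor alpha with delta (Tra and Trd, 131 tiles) averaged 88.3% ± 0.158 and 87.7% ± 0.647, beta (Trb, 83 tiles) 92.8% ± 0.0729 and 91.5% ± 1.22, and gamma (Trg, 20 tiles) 94.2% ± 0.186 and 92.6% ± 0.728, in old and in young libraries in turn. Igh was below all 4 in each library, by 11.6 points against Igl, 13.6 against Tra and Trd, 17.7 against Trb and 18.9 against Trg, each with an exact sign-flip p of 0.0625 (adjusted 0.0714). Igh was 15.0 points below the 1 Mb of sequence before it and 18.9 below the 1 Mb after it. For Igk these gaps were 5.07 and 2.25 points, with Igk below in 5 of 5 libraries at both. Igk was 0.159 points below Tra and Trd, with Igk minus Tra and Trd between -0.869 and 0.386 points over libraries (p = 0.562, exact), and 4.24 and 5.45 points below Trb and Trg (p = 0.0625 each, exact). It was 1.90 points above Igl, and above it in all libraries but 1, with differences from -0.185 to 3.13 points (exact sign-flip p = 0.125).

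Igh held many tiles at intermediate methylation and none under 20%. Tiles between 30% and 70% were 99 of 282 in Igh (35.1%) and 32 of 455 in Igk (7.03%), against 3.71% over the rest of chromosome 12 and 6.01% over the rest of chromosome 6. Tiles at 90% or more were 18.1% in Igh and 57.4% in Igk, against 77.1% and 74.2%. No tile of either locus was under 20%, and the lowest pooled level was 28.7% in Igh and 37.9% in Igk. Single CpGs were also often intermediate. In Igh, CpGs between 20% and 80% were 43.0% and 46.0% of the 2119 kept CpGs in old libraries and 48.6%, 46.3% and 50.8% in young ones. In Igk the share was 18.1% and 19.9% in old and 21.4%, 21.0% and 21.3% in young libraries, and in the rest of the genome 12.9% and 13.5% in old and 13.3%, 11.5% and 15.9% in young libraries. The old libraries lay below the young ones in both loci and among them in the rest of the genome. CpGs under 20% were 1.56% and 1.46% of the Igh CpGs in old and 2.08%, 3.96% and 1.79% in young libraries, against 1.78% and 1.67% in old and 1.88%, 2.41% and 1.37% in young libraries in the rest of the genome.

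**Figure D2:**
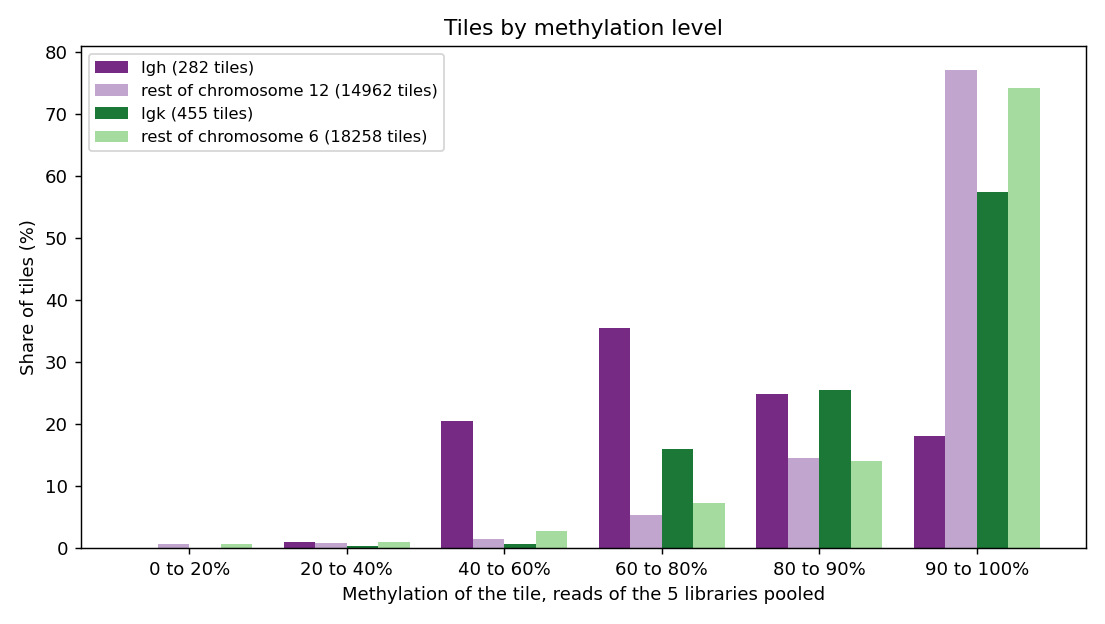
Share of tiles (%) in bands of methylation level, reads of all libraries pooled, for Igh, the rest of chromosome 12, Igk and the rest of chromosome 6. Igh has 20.6% and 35.5% of its tiles in the bands 40% to 60% and 60% to 80%, where the rest of chromosome 12 has 1.52% and 5.41%.

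The level was also read by the number of CpGs in a tile. Igh tiles with 3 CpGs (135 tiles) averaged 75.7% ± 0.0251 in old and 72.3% ± 1.57 in young libraries, while such tiles of the rest of chromosome 12 averaged 91.8% ± 0.103 and 91.6% ± 0.792. Tiles with 7 to 10 CpGs (20 tiles) averaged 75.4% ± 1.403 and 73.5% ± 2.81, against 90.5% and 90.3% elsewhere on the chromosome. In the 8 Igh tiles with 11 or more CpGs the means were 80.5% ± 0.622 in old and 78.2% ± 3.58 in young libraries, nearer to the 82.8% and 82.6% of the rest of the chromosome.

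Methylation changed along Igh with the order of its genes. In bins of 250 kb from the constant end, the first pair of bins, with the constant genes, D and J segments, Adam6 genes and the first V segments, averaged 91.2% ± 0.292 and 94.3% ± 0.710 in old libraries and 92.2% ± 1.71 and 93.1% ± 2.27 in young ones. The bins from 500 to 1250 kb, which hold Ighv5, Ighv2, Ighv7, Ighv14, Ighv3 and other families, stepped down through 89.7%, 87.3% and 80.1% in old libraries and 89.2%, 85.0% and 79.1% in young ones. From Ighv1-5 outward the bins lay between 63.2% and 71.1% in old libraries and between 60.5% and 67.8% in young ones, with the lowest between Ighv8-7 and Ighv1-64. The last full bin, from Ighv1-72 to Ighv1-85, was higher again at 82.1% ± 0.444 in old and 78.2% ± 1.80 in young libraries. In each of the 5 libraries the bins from 1250 to 2500 kb were lower than every bin before and after them. The lowest bin was that from 2000 to 2250 kb, except in young replicate 3, which read 66.1% there and 65.6% from 1500 to 1750 kb. Young replicate 2 was the lowest library in each of the 5 bins from Ighv1-5 to Ighv1-72.

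**Figure D3:**
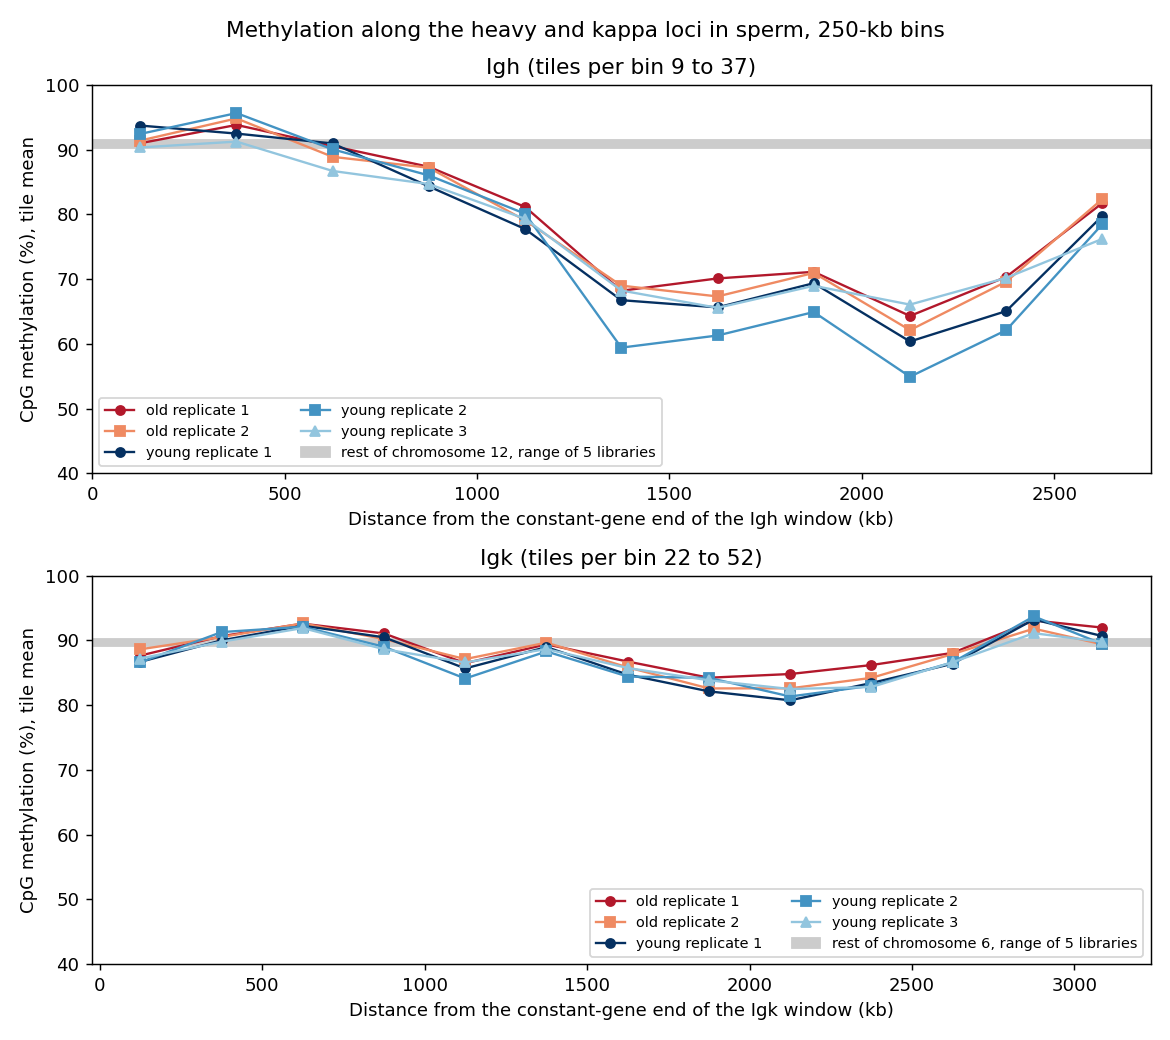
Tile mean of CpG methylation (%) in 250-kb bins against distance (kb) from the constant-gene end of each window, 1 line per library, with the range of the rest of the chromosome in grey. Beyond 750 kb all 5 Igh lines lie below the grey band, and the mean reaches 63.2% in old and 60.5% in young libraries between 2000 and 2250 kb, while the Igk lines stay between 80.8% and 93.7%.

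The boundary of the low stretch was drawn at Ighv1-5 after the profile had been seen, so both sides are given without a test. The distal side, with 191 tiles and 105 V segments and pseudogenes, of which 88 are Ighv1 (the large J558 family) and 14 Ighv8, read 70.8% and 70.02% in old replicates and 67.6%, 63.4% and 69.2% in young replicates 1 to 3. The proximal side, with 88 tiles and 78 V segments and pseudogenes of which 4 are Ighv1, read 88.0% and 87.0% in old and 86.8%, 87.4% and 85.1% in young replicates. Tiles between 30% and 70% were 49.7% of the distal and 4.55% of the proximal tiles. Across 11 bins of Igh the level and the number of listed CpGs per kb, 1.65 to 4.28, had a Pearson r of -0.673, and the level and the mean coverage, 16.9 to 29.2 reads, an r of 0.0186. These bins share their libraries, and the part of CpG number in the profile was not tested.

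The constant part of Igh was highly methylated where it was measured. Its 3 tiles, near Ighg3 and the pseudogene Gm9134, averaged 93.1% ± 0.176 in old and 93.8% ± 1.502 in young libraries, a difference of -0.667 points with overlapping ages (exact permutation p = 0.7). The variable part averaged 75.8% ± 0.614 in old and 72.9% ± 1.73 in young libraries. Within libraries it was 19.4 points below the constant part, from 16.97 to 24.3, in 5 of 5 libraries (exact sign-flip p = 0.0625, adjusted 0.0714). The gap was 17.3 points in old and 20.8 in young libraries, and the ages differed by 3.56 points (exact permutation p = 0.2).

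No constant gene and no J segment had 3 CpGs kept in all libraries. The constant genes and J segments, with 1000 bp either side, were therefore read from every CpG that each library listed. That choice was made after the data were seen. Ighg1, the heavy constant gene of IgG1, held 8 to 25 such CpGs and read 95.6% and 91.4% in old replicates and 96.2%, 91.8% and 86.3% in young replicates. Ighd, that of IgD, read 92.6% and 96.4% in old and 90.9%, 93.9% and 92.2% in young replicates. Ighg2b, that of IgG2b, held 2 to 15 CpGs and read 87.6% and 86.7% in old and 92.9%, 93.3% and 93.1% in young replicates. At Ighg2b the old values lay below the young ones. The genes were high in every library at 15 to 151 reads, and the ages overlapped at Ighg1 and Ighd. Ighe, that of IgE, averaged 95.2% ± 6.84 in old and 97.2% ± 2.62 in young libraries on 5 to 58 reads. Ighg2c and Ighg3 rested on 10 to 44 reads, and averaged 95.4% ± 0.293 and 97.9% ± 2.95 in old and 84.1% ± 11.1 and 80.8% ± 14.3 in young libraries. At both the old values lay above the young ones with no overlap, on 3 to 8 CpGs per library at Ighg2c and 1 to 4 at Ighg3. The CpGs listed differed between libraries, here and at Ighg2b, and their part in the separation was not tested. Ighm and Igha, which encode the chains of IgM and IgA, had no listed CpG in 1 library. Igkc, the kappa constant gene, rested on 5 to 62 reads and read 91.4% and 60% in old and 96.9%, 95.2% and 76.5% in young replicates. J segments rested on 90 reads or fewer. Ighj4 ran from 20% to 100% on 5 to 21 reads, a spread in which no age difference was detectable. Igkj5, with 3 to 11 CpGs and 16 to 90 reads, read 78.0% and 77.8% in old and 80.9%, 87.5% and 94.4% in young replicates. The difference was -9.70 points with no overlap of the ages, and there too the CpGs listed differed between libraries. Igkj4 read 60% and 80.8% in old and 80%, 80% and 94.9% in young replicates. Its window overlaps that of Igkj5, so they are not separate readings.

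Along Igk the bins stayed between 83.4% and 92.6% in old libraries and between 81.5% and 92.7% in young ones. The lowest stretch lay 1750 to 2500 kb from Igkc, between Igkv4-83 and Igkv14-111. There the bins averaged 83.4% ± 1.17, 83.7% ± 1.56 and 85.2% ± 1.399 in old libraries and 83.4% ± 1.11, 81.5% ± 0.885 and 83.1% ± 0.318 in young ones.

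Levels near V segments could be given for few of them. In Igh 22 of 121 annotated V segments and 8 of 63 V pseudogenes had 3 kept CpGs within 1000 bp, and in Igk 33 of 102 and 18 of 60. Most tiles lay between genes: 26 of 282 Igh tiles and 34 of 455 Igk tiles touched an annotated gene, and the median distance to the nearest was 3.41 kb and 4.06 kb. Ighv1 was the 1 heavy family with at least 5 measured members, 20 of 92, and averaged 70.2% ± 1.64 in old and 68.3% ± 2.02 in young libraries, with members from 30.6% to 91.98%. In Igk, Igkv4 (13 of 33 measured) averaged 88.0% ± 1.23 in old and 85.0% ± 0.615 in young libraries. Igkv1 (6 of 13) averaged 91.0% ± 1.20 and 90.5% ± 0.969, Igkv8 (9 of 13) 93.3% ± 1.97 and 93.7% ± 1.42, and Igkv12 (6 of 12) 91.9% ± 0.728 and 90.2% ± 2.54, in old and in young libraries in turn. The ages overlapped in all of these families except Igkv4.

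Both loci had higher means in old sperm, and neither difference passed a test. Igh averaged 76.0% ± 0.609 in old and 73.2% ± 1.70 in young libraries (SD, n = 2 and 3), a difference of 2.86 points with no overlap of the ages. The two-sided exact permutation test over 10 splits gave p = 0.2 (adjusted 0.267 over 4 regions), where the smallest possible p is 0.1. Igk averaged 88.4% ± 0.535 in old and 87.4% ± 0.0350 in young libraries, a difference of 1.02 points with no overlap (exact p = 0.1, adjusted 0.267). Against the young mean of replicate 1 alone, without the young replicates 2 and 3 that stood apart, the old libraries were 2.16 points higher in Igh and 0.983 in Igk. Without young replicate 2 the Igh difference was 1.89 points, and without old replicate 1 the Igk difference was 0.643 points. The rest of chromosome 12 differed by 0.221 and the rest of chromosome 6 by 0.191 points, with overlapping ages. The excess of the Igh difference over the rest of its chromosome was 2.63 points (exact permutation p = 0.2), and that of Igk 0.830 points (p = 0.3, exact).

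The direction was spread over many tiles and not carried by a few. In Igh 203 of 282 tiles (72.0%) and in Igk 274 of 455 (60.2%) were higher in old sperm, where 52.5% of all tiles in the genome were. Tiles whose ages did not overlap and were higher in old sperm were 53 in Igh (18.8%) and 55 in Igk (12.1%), against 8.82% of all tiles, and those lower in old sperm were 6 (2.13%) and 24 (5.27%), against 8.14%. Neighbouring tiles share their libraries and are not replicates. Distal Igh tiles were higher in old sperm in 143 of 191, and proximal ones in 59 of 88.

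The ages were also compared between tiles of equal level, a comparison chosen after the data were seen. Of the tiles 60% to 80% methylated, the 100 in Igh read 74.0% and 73.1% in old replicates and 71.1%, 67.6% and 69.98% in young replicates, while the 21625 elsewhere on the autosomes read 73.0% and 72.3% in old and 71.8%, 71.7% and 72.3% in young replicates. The difference between the ages was 3.97 points in Igh and 0.738 elsewhere, and the excess of 3.23 points had an exact permutation p of 0.2. The excess was smaller at higher levels, at 0.771 points for the 70 tiles from 80% to 90% (exact p = 0.7) and 1.502 points for the 51 tiles at 90% or more (exact p = 0.2). At 40% to 60% the 58 Igh tiles read 55.3% and 54.0% in old and 50.7%, 43.9% and 56.8% in young replicates, with overlapping ages. The difference in that band was 4.17 points in Igh and 0.140 elsewhere on the autosomes, and its excess was not tested. At 60% to 80% the 73 Igk tiles averaged 72.8% ± 0.125 in old and 69.9% ± 3.22 in young libraries, with overlapping ages, an excess over tiles elsewhere of 2.18 points (exact p = 0.4). The Igk excess was 0.560 points from 80% to 90% (exact p = 0.7) and 0.406 points at 90% or more (exact p = 0.1).

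**Figure D4:**
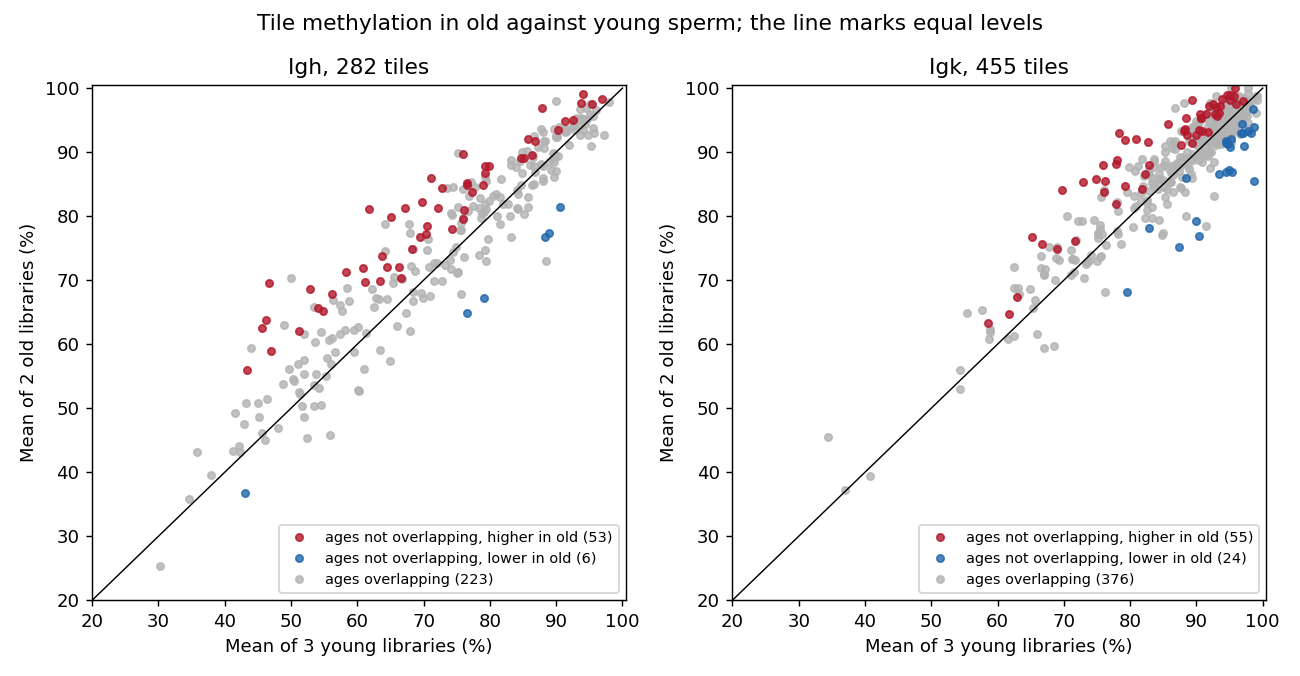
Methylation (%) of each tile, mean of 2 old libraries on the vertical and of 3 young libraries on the horizontal axis; red and blue mark tiles whose ages do not overlap. In Igh 203 of 282 tiles lie above the line of equal levels and 53 are red, against 6 blue; in Igk 274 of 455 lie above it.

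No single tile of the loci passed the test. In the quasi-binomial fit over all tiles, 0 of the 737 tiles had an adjusted p under 0.05 with a difference of at least 10 points, where 2 of 321659 tiles of the genome did (0.000622%), and the smallest adjusted p in the loci was 1. At an unadjusted p under 0.05, 21 Igh and 13 Igk tiles were higher in old sperm, against 2.04% of all tiles, and 1 and 4 were lower, against 1.50%. A moderated linear model on log2 odds, built as in limma, called 0 tiles in the loci and 0 in the genome.

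The Igh tile with the smallest p, chr12:115125001-115126000, lies 4.96 kb from Ighv1-50 and holds 6 CpGs. It read 83.3% and 76.3% in old replicates and 63.6%, 67.4% and 64.4% in young replicates, 14.7 points higher in old sperm (quasi-binomial unadjusted p = 0.00126, adjusted p = 1). The tile chr12:115736001-115737000, 5.21 kb from Ighv1-71, read 79.1% and 83.5% in old and 67.1%, 74.5% and 74.8% in young replicates. That at chr12:115754001-115755000, 2.98 kb from Ighv1-72, read 65.5% and 62.1% in old and 49.0%, 39.4% and 50.4% in young replicates. The ages did not overlap at any of these 3 tiles, all of them among the distal V segments. Of tiles lower in old sperm the smallest p in Igh was that of chr12:113957001-113958000, 6.39 kb from Ighv3-1, with 15 CpGs and 776 to 1125 reads. It read 49.3% and 56.0% in old and 62.6%, 52.8% and 65.4% in young replicates, and the ages overlapped (quasi-binomial unadjusted p = 0.0103, adjusted p = 1). The tiles near Ighv1-47 and Ighv1-1 differed by -11.6 points each on 26 to 59 reads. Without old replicate 2 the first differed by -5.93 points. Without old replicate 1 the tile near Ighv3-1 differed by -4.33 points, and without young replicate 3 by -5.10, against -7.66 with all libraries.

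In Igk the smallest p was that of chr6:68292001-68293000, a tile of 19 CpGs 9.44 kb from Igkv2-109. It read 85.2% and 82.9% in old replicates and 74.2%, 70.9% and 83.2% in young replicates, 7.95 points higher in old sperm with overlapping ages (quasi-binomial unadjusted p = 0.00109, adjusted p = 1). Without young replicate 3 the difference was 11.5 points and the tile passed the test, the only one of the loci to do so when a library was left out. Its mean coverage was 297 reads, where the median Igk tile had 17.8, and what such a depth means for its reads was not tested. Tiles near Igkv12-44 and Gm5310, the others named among tiles higher in old sperm, were higher by 14.3 and 14.7 points with no overlap. The tile chr6:69387001-69388000, 4.44 kb from the pseudogene Igkv13-62-1, read 82.8% and 88.2% in old and 96.2%, 100% and 100% in young replicates on 23 to 36 reads. The tiles near Igkv3-7 and Amd-ps2 differed by -3.82 and -10.7 points, lower in old sperm.

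The least methylated tiles of each locus had a pseudogene or a V segment as the nearest gene, up to 8.06 kb away at Igkv4-86. Whether they lie closer to V segments than other tiles was not tested. The lowest of Igh, chr12:115892001-115893000, touches the pseudogene Gm9256. It read 24.8% and 25.9% in old replicates and 31.9%, 17.7% and 41.2% in young replicates on 294 to 335 reads. The other 4 lay 0.707 to 3.99 kb from Ighv1-62, Ighv1-62-1, Ighv1-62-2 and Ighv1-62-3, at pooled levels of 37.7% to 41.1%. In Igk the lowest was a tile of 20 CpGs at chr6:70129001-70130000, 0.676 kb from the pseudogene Amd-ps2, which read 32.6% and 42.0% in old and 32.4%, 28.2% and 50.3% in young replicates. A tile of 9 CpGs that touches Amd-ps5 read 39.8% and 51.3% in old and 21.3%, 28.6% and 53.3% in young replicates. Young replicate 3 was the highest library in 7 of these 10 tiles, as over weakly methylated tiles of the genome, and the ages overlapped in all of them except the tile near Ighv1-62-1.

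**Figure D5:**
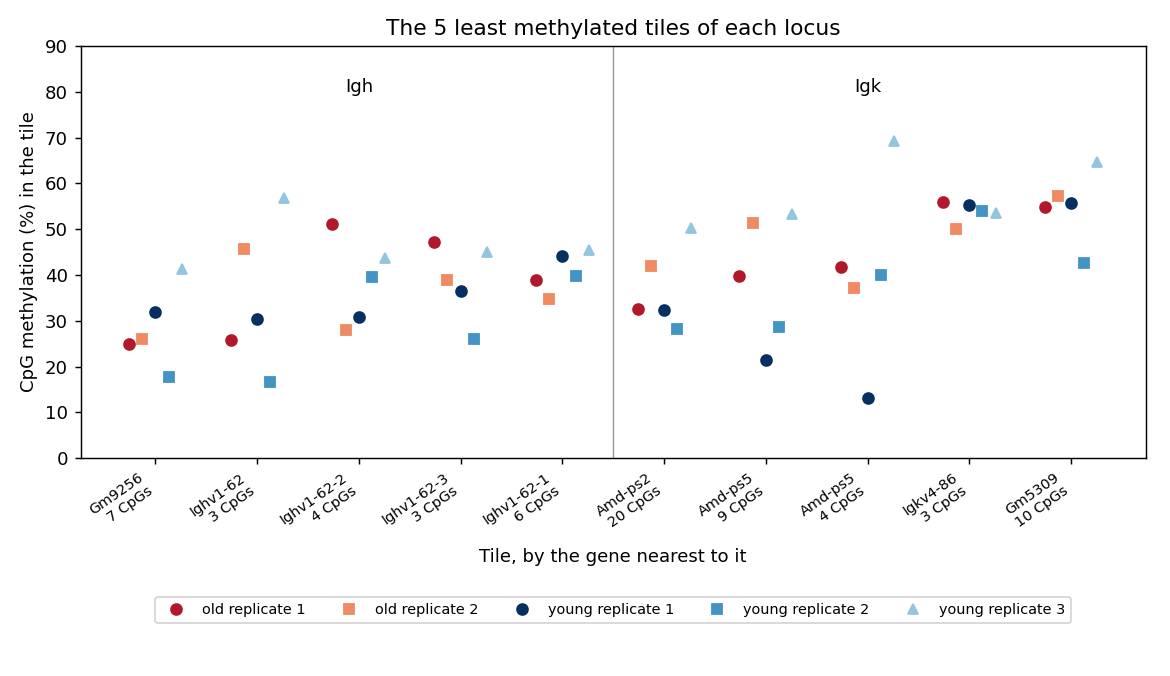
CpG methylation (%) in each library at the 5 least methylated tiles of Igh (left) and of Igk (right), named by the nearest gene; old libraries are drawn left of young ones. At the Amd-ps5 tile of 4 CpGs the young libraries run from 13.04% to 69.2% and the old ones read 41.7% and 37.1%.

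Taken by gene, with 1000 bp either side, 115 genes of the loci had 3 kept CpGs and 0 were called, as were 0 of 29105 genes of the genome (0%). An unadjusted p under 0.05 was reached by 4 of the 115, against 1.87% of all genes. Genes whose ages did not overlap and were higher in old sperm were 10 of 47 in Igh and 10 of 68 in Igk, against 7.83% of all genes, and those lower were 0 and 1, against 6.78%. Some gene windows overlap, among those higher in Igh the windows of Gm40899 and Ighv1-23 and of Ighd5-5 and Ighd2-7, so these are not all separate readings. The 4 with an unadjusted p under 0.05 were Ighv1-23, Ighv1-66, Ighv1-72 and the pseudogene Igkv8-31, all higher in old sperm. Ighv1-23, beside the heptamer printed above, read 83.6% and 81.9% in old and 77.1%, 78.8% and 79.8% in young replicates on 740 to 1022 reads, 4.17 points higher in old sperm with no overlap (quasi-binomial unadjusted p = 0.0258, adjusted p = 1). Ighv1-66 was 6.01 points higher in old sperm, or 3.79 without old replicate 1, Ighv1-72 8.10 points higher, and Igkv8-31 5.23 points. Of the Igh V segments 16 of 22 were higher in old sperm, and their mean was 76.4% ± 0.642 in old and 74.1% ± 0.595 in young libraries. The Igh V pseudogenes averaged 72.8% ± 3.35 in old and 73.4% ± 1.07 in young libraries, with 2 of 8 higher. In Igk 15 of 33 V segments and 14 of 18 V pseudogenes were higher in old sperm, where 53.2% of all genes were. Whether segments and pseudogenes differ in this was not tested.

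Adam6a read 94.8% and 90.9% in old and 89.2%, 91.4% and 86.1% in young replicates, and Adam6b 93.6% and 92.7% in old and 93.3%, 97.2% and 92.6% in young replicates. Both were highly methylated and overlapped between the ages. The 1 CpG of the Adam6a window printed above was methylated in 25 of 26 and 12 of 13 reads in old replicates and in 14 of 14, 24 of 24 and 24 of 25 reads in young replicates. With so few reads the 95% Wilson interval reached down to 66.7% in old replicate 2, and no difference was detectable. Of the D segments, Ighd2-7 read 95.8% and 95.6% in old and 95.5%, 93.6% and 94.0% in young replicates, and Ighd5-5 was likewise near 96%. Around the hairpin of Mir7094-2, 12 bp from Ighv1-5, 2 kept CpGs read 43.3% and 53.8% in old and 46.2%, 35.7% and 35.3% in young replicates. Reads at Gm30948 gave 73.3% and 75.6% in old and 68.3%, 54.1% and 72.3% in young replicates, and at Gm30996 58.1% and 53.9% in old and 56.7%, 47.4% and 63.5% in young replicates.

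Genes that act on these loci in B cells were looked at beside them. Of 33 genes of recombination, class switching, B cell transcription and B cell receptor signalling, 24 had a measured gene region. Of these 14 were higher in old sperm, where 53.2% of all genes were, 1 had an unadjusted p under 0.05, against 1.87% of all genes, and 0 were called, against 0%. The 17 measured ends of the list read 62.7% and 63.8% in old and 64.7%, 65.4% and 65.1% in young replicates, a difference of -1.81 points with no overlap. That 1 was Bcl11a, a transcription factor of early B cells. Its gene region averaged 77.0% ± 1.48 in old and 73.1% ± 1.20 in young libraries. The measured end of Bcl11a went the other way, with a difference of -14.9 points and overlapping ages. It read 61.8% and 76.4% in old and 72.7%, 94.6% and 84.7% in young replicates. The less methylated measured end of Rag1, a subunit of the recombinase, averaged 88.7% ± 4.58 in old and 80.2% ± 4.33 in young libraries, with no overlap. The ends of Spi1 and Vpreb3 were lower in old sperm, also with no overlap. Spi1 averaged 63.2% ± 12.5 in old and 83.9% ± 2.08 in young libraries, and Vpreb3 93.3% ± 1.43 and 96.4% ± 3.10. At the other measured ends of the list the ages overlapped. Over whole gene regions they also overlapped at Spi1 (93.0% ± 0.543 in old, 92.9% ± 1.99 in young) and Rag1 (89.4% ± 0.786 and 87.7% ± 3.66). Ends use every CpG a library lists, so libraries need not share CpGs. The share of ends without overlap over all genes was not computed. The ends of the transcription factors Ebf1 and Pax5 were low, at 3.01% ± 0.347 and 15.6% ± 1.56 in old and 2.93% ± 0.341 and 13.3% ± 1.32 in young libraries.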

How the data were processed

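Sperm genomic DNA of old (n = 2) and young (n = 3) mice was sequenced after bisulfite conversion. The submitters' processing notes name Trim Galore (0.4.3), Bismark (0.16.3), methylKit (1.4.0) and build mm10, also called GRCm38. Duplicate removal is not given in the sources used here. Per the file headers, the deposited tables give for each cytosine and strand the coverage as a count of reads, with the percent read as C and as T. The lowest deposited count was 5 reads. Conversion failure and C-to-T variants cannot be told apart from methylation state in such reads.

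From these, coverage times percent gave whole methylated reads for 100% of cytosines. Strands were summed, CpGs that reached 5 reads in every library were kept (2255866 of 13063725 listed), and reads were summed over 1000-bp tiles with 3 or more of them. A locus mean weights its tiles equally. Tiles, and genes with 1000 bp either side, were fitted with a quasi-binomial logistic model, old against young. Its dispersion was moderated across features and not let below 1, with Benjamini-Hochberg adjustment over all features. A call needed 10 points or more between the ages, and the adjusted p had to be under 0.05. Means were compared by two-sided exact permutation over 10 splits, and regions within libraries by exact sign flips. Reads are not independent molecules, so intervals cover counting error only. The fits were tried on simulated counts with known changes. Coordinates and names came from RefSeq tables of GRCm38.p6 without strand or exons, so exons, introns and UTRs were not analysed here. Gene list levels use the less methylated measured end, 1000 bp either side, from every CpG a library lists.

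The constant part is the side of Ighm, or Igkc, away from the J segments. Named tiles were, per locus, the 3 of smallest p in each direction and the 5 least methylated. Named genes were constant genes, named genes that are no segment, D and J segments, and V segments of smallest p, 3 in each direction. The members and lists were chosen with earlier results of these data known. Replicate numbers were not used to pair libraries in the main tests. Alternatives changed coverage, tile width, CpG number, model and libraries. The scripts ran on Python (3.11.15) with numpy (2.4.6), with pandas (2.3.3), with scipy (1.17.1) and, for figures, with matplotlib (3.10.9).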

Additional observations from a re-analysis of the deposited data

How the results depend on the processing

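Over 16 alternatives each, the higher means of old sperm kept their sign, from 1.87 to 3.48 points in Igh and from 0.643 to 1.64 in Igk. Leaving out 1 library in turn gave 1.89 to 3.48 points in Igh, with the lowest without young replicate 2, and 0.643 to 1.399 in Igk, with the lowest without old replicate 1. The share of Igh tiles higher in old sperm was 64.2% to 82.4%. The gap of Igh to the rest of chromosome 12 ran from -17.3 to -13.0 points, and that of the variable to the constant part from -20.03 to -12.2. The small difference of the Igh constant part turned to 0.683 points with every common CpG and to 2.38 with every CpG a library lists, and lay between -1.43 and 0.0693 with 1 library left out. The cause was not tested.

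Calls depended on the model. The binomial model, which allows no spread between libraries, called 714 tiles in the genome, 2 in the loci and 100 gene regions in the genome. With at least 10 reads, with at least 5 CpGs per tile, in the limma-like model and with the replicate block 0 tiles were called in the genome. With 1 library left out 0 to 34 tiles were called in the genome and 0 to 1 in the loci, the most without young replicate 3. The deviations of libraries with the same number had correlations of 0.00937 and -0.0198. With 2 old libraries the deviations mirror each other, so these values cannot decide whether the numbers pair libraries. The block gave mean differences of 3.48 points in Igh and 1.02 in Igk. For these means the block uses replicates 1 and 2 alone, so its values equal those without young replicate 3 and it is no separate alternative.

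Of 22 named tiles 7 and of 21 named genes 4 turned sign under some alternative, and the cause was not tested. The Amd-ps2 tile of 20 CpGs read -0.661 points with at least 10 reads. With 1 library left out, the tiles ranged from -4.35 to 7.02 points near Amd-ps2 (20 CpGs), -15.2 to 12.9 at Amd-ps5 (4 CpGs), -4.31 to 1.69 near Igkv4-86, -4.29 to 6.75 at Gm5309, -11.2 to 0.574 at Gm9256, -8.77 to 12.3 near Ighv1-62 and -10.1 to 13.2 near Ighv1-62-2. The genes ranged from -2.07 to 0.242 points at Adam6b, -7.73 to 5.82 at Amd-ps2, -0.802 to 18.0 at Amd-ps5 and -6.72 to 0.740 at Ighv1-62-1.

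Depth limits single tiles: in the median Igh tile the shallowest library had 51.5 reads. Constant genes and J segments rest on few reads. With 2 and 3 libraries the smallest exact p is 0.1.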
